A study of Mus musculus with 16 samples.

Results

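Macrophages that carry YFP and macrophages that lack it, sorted from the same kind of pancreatic tumor, were compared across all genes on the array. The comparison holds 10 of the 16 samples of the study, 5 labelled as tumor macrophage YFP+ and 5 as tumor macrophage YFP-, and was chosen by those labels alone. Each group was taken from tumors of female C57/B6 mice of 8 to 10 weeks that, by the series title and design, carry a Cre recombinase driven by Flt3 and a YFP reporter behind a stop cassette. The labels give no genotype, speak of implanted tumors and of KPC mice without tying either to a sample, and do not say that the samples of a group came from separate animals, so the p-values below measure the spread between these samples, which may be technical. The remaining 6 samples are YFP+ (3) and YFP- (3) macrophages of normal pancreas from mice of the same sex, background and age, and are used here only for the shared spread and for the values set beside those of the tumor. Of the genes on the array 24172 were tested.

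Flt3 encodes a cytokine receptor of early blood progenitors, and a Cre driven by it excises the stop cassette in those progenitors, so that cells that descend from them keep YFP after Flt3 itself has been turned off. Macrophages seeded from embryonic precursors largely bypass that stage, and the reporter is therefore used to separate macrophages by ancestry. Lymphocytes also descend from Flt3-expressing progenitors and carry the mark, whereas fibroblasts and epithelial cells do not pass through that stage. A fraction sorted by surface markers is measured as a bulk sample, in which fewer cells of a type and less RNA per cell cannot be told apart.

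The most numerous class among the genes higher in YFP+ samples was made of immunoglobulin gene entries, each read by a probe of 60 bases. The probe sequences of a kappa segment without a position in the file, a kappa segment and a lambda segment are shown because they carry the values described below. Igkv4-53 lies at chr6:69413673-69413732 and Iglv1 at chr16:19061905-19061964 (mm9, positions of the probes as given in the array files).
Igkv4-72: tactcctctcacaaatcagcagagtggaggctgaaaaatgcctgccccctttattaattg
Igkv4-53: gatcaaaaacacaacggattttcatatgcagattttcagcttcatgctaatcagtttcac
Iglv1: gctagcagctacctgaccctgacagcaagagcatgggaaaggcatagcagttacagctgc

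All values are log2 signal relative to the 75th percentile of the array, so that 0 stands for that percentile, a difference is YFP+ minus YFP-, and errors of differences are standard errors from limma, a linear model with moderated variances. The values of all 20 core macrophage genes overlapped between the groups. Csf1r, the receptor for macrophage colony-stimulating factor, read 5.22 to 5.70 in YFP+ and 4.93 to 5.69 in YFP- samples, and Adgre1, which encodes F4/80, read 2.38 to 3.24 and 2.67 to 3.19. Of 20 core macrophage genes 0 passed the test in either direction (median difference -0.06). Of 21 monocyte, 22 tissue-resident macrophage and 15 MHC class II genes 0 passed either, against 2.39% of all genes tested. Lists this short can hold 0 at that share. Among the 22 tissue-resident differences 20 were negative (median -0.69). Flt3 itself read -0.49 to 0.38 in YFP+ and -1.01 to 0.71 in YFP- samples, which overlap (difference 0.27 ± 0.43, limma adjusted p = 0.915). The 75th percentile intensity was 2911 to 3388 on the YFP+ arrays and 2167 to 2853 on the YFP- arrays, so the groups also differ in brightness before scaling, and the part of brightness in the results was not tested.

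At an adjusted p under 0.05 (limma, Benjamini-Hochberg over all genes tested), 577 genes differed, which is 2.39% of those tested. Of these, 186 were higher in YFP+ samples (0.769%) and 391 were lower (1.62%). The median difference over all genes was 0.01. Among the 186 higher genes 171 differed at least 2-fold, as did 362 of the 391 lower genes. The 5 and 5 values did not overlap for 1046 genes (4.33%), which include 151 of the higher and 359 of the lower genes. The count of higher genes fell to 119 without YFP+ sample 23677, to 112 without YFP+ sample 23550 and to 118 without YFP+ sample 23551.

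**Figure D1:**
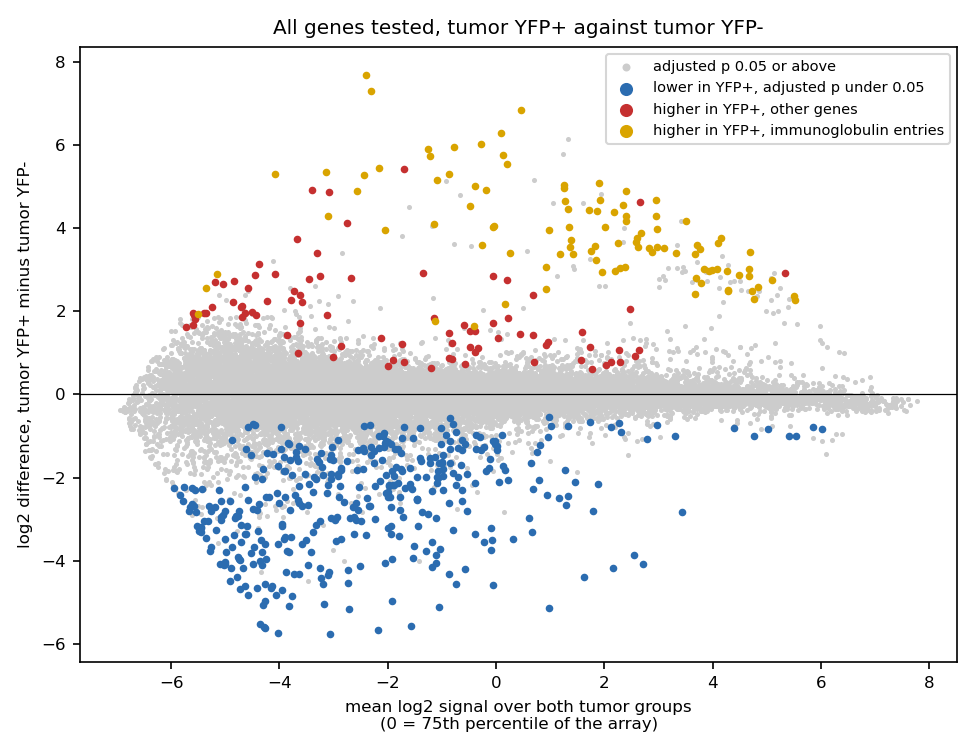
Log2 difference between tumor YFP+ and tumor YFP- samples (vertical axis) against mean log2 signal of the 10 tumor arrays (horizontal axis), 1 point per gene, with immunoglobulin entries and the other genes past adjusted p 0.05 in colour. The 101 immunoglobulin entries past the threshold all lie above 0, and the 391 genes below 0 reach down past -5.

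Immunoglobulin entries accounted for 101 of the 186 higher genes (54.3%). Antibodies are built from heavy, kappa and lambda chains, whose variable segments are joined in B cells and transcribed most strongly in plasma cells. The array holds 226 tested entries of this class, a group that was defined after values had been seen. Of the 226 entries 101 were higher in YFP+ samples and 0 were lower (44.7% against 0.769% of all genes), 214 differences were positive, and the median difference was 2.95. The groups did not overlap, with YFP+ higher, for 140 entries. Without YFP+ sample 23677, 23550 or 23551 the count of 101 fell to 67, 62 and 61.

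The kappa locus on chromosome 6 gave 55 of 90 entries higher (median difference 3.60). The heavy chain locus on chromosome 12 gave 35 of 119 (median 2.56), and the lambda locus on chromosome 16 gave 5 of 9 (median 1.94). A further 8 entries had another or no position, and 6 of them were higher. The rise was thus found at all 3 loci. Averaged over the kappa entries, the YFP+ samples 23547, 23548, 23550, 23551 and 23677 read 2.71, 2.47, 3.32, 3.41 and 3.12, and the YFP- samples with these numbers read -1.14, -1.24, -0.47, -0.32 and 0.39. Averaged over the heavy chain entries, the YFP+ samples read 2.47, 1.83, 3.01, 2.88 and 2.77 and the YFP- samples 0.07, -0.32, 0.45, 0.11 and 0.80. Every YFP+ sample lay above every YFP- sample at both loci. The same order of numbers is used for all lists of 5 values below.

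**Figure D2:**
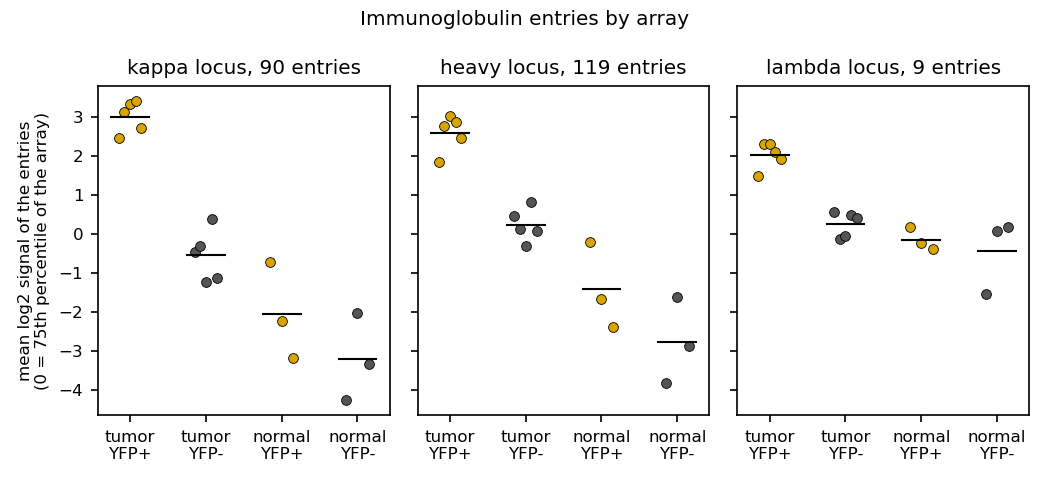
Mean log2 signal of the entries at the kappa (90), heavy (119) and lambda (9) loci (vertical axis, 0 is the 75th percentile of the array) in each array of the 4 groups, with the group mean as a bar. Tumor YFP+ arrays lie above tumor YFP- arrays at all 3 loci, and both normal groups have lower means than either tumor group at the kappa and heavy loci.

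Igkv4-72, a kappa variable segment, read 4.01, 2.17, 4.36, 4.53 and 3.77 in YFP+ samples and -1.34, -2.50, -0.26, -2.83 and 0.57 in YFP- samples. The lowest YFP+ value was above the highest YFP- value, and the difference was 5.04 ± 0.61 (adjusted p = 0.000436, limma). Igkv4-53 read 0.92, -0.27, 1.20, 1.5 and 1.15 against -3.51, -3.05, -3.70, -5.15 and -0.51, again without overlap (4.09 ± 0.72, adjusted p = 0.00538, limma), and was well above background on 4 of the 5 YFP- arrays. Iglv1, the lambda segment, read 4.52, 4.36, 5.38, 5.45 and 5.35 against 3.23, 1.51, 2.03, 0.09 and 1.27 (3.39 ± 0.68, adjusted p = 0.0127, limma). It was well above background on all 5 YFP- arrays. The 226 probes are all distinct, but 54 entries, 25 of them among the 101, share a run of at least 25 bases with another entry, so that signal at one segment can come from a relative. Constant region genes are not listed under their own symbols. Entries placed by position were not split into variable segments and constant regions, so the heavy chain entries can include constant region probes.

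Genes of the antibody-secreting cell moved with the immunoglobulin entries. Of 18 plasma cell genes tested, 9 were higher and 0 were lower, and all 18 differences were positive (median 1.12). The mean level of the list was 1.38 to 2.02 in YFP+ samples and -0.01 to 0.72 in YFP- samples. Mzb1, a chaperone of antibody assembly in B lineage cells, read 1.08, 0.97, 2.28, 1.42 and 2.20 in YFP+ samples and -1.83, -1.84, -0.46, -0.75 and -0.96 in YFP- samples. The groups did not overlap (2.76 ± 0.40, adjusted p = 0.00135, limma). Tnfrsf17, which encodes the plasma cell survival receptor BCMA, read -1.75, -1.37, -1.29, -1.47 and -0.52 against -4.75, -5.33, -3.42, -3.37 and -3.52 (2.80 ± 0.45, adjusted p = 0.00278), and was well above background on 3 of 5 YFP- arrays.

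Transcription factors of the lineage were also higher. Irf4, required for plasma cell differentiation and also active in macrophages and dendritic cells, read 1.43, 1.57, 2.0, 0.93 and 1.63 in YFP+ samples and 0.15, 0.25, 0.97, 0.18 and 0.14 in YFP- samples. The highest YFP- value, 0.97, lay just above the lowest YFP+ value, 0.93 (1.18 ± 0.21, adjusted p = 0.00538, limma). Bhlha15, which encodes the secretory cell factor MIST1 and is listed among acinar genes too, was higher by 3.74 ± 0.77 (adjusted p = 0.0153), but was well above background on 1 of 5 YFP- arrays only, so that this size depends on signal near the floor. With every signal raised to at least the lowest one well above background on its array, the floor used for all such values below, the Bhlha15 difference was 2.49, and with normexp background correction the call was lost (adjusted p = 0.0906, limma). Pou2af1, a B cell co-activator, was higher by 2.04 ± 0.49 (adjusted p = 0.0417), a call lost in 11 of 23 refits, among them the one with slide as a block (adjusted p = 0.0573). Xbp1 and Prdm1, the other main plasma cell regulators, differed by 0.47 ± 0.17 (adjusted p = 0.309) and 0.28 ± 0.40 (adjusted p = 0.902) and did not pass. Jchain, which joins secreted IgA and IgM, read 4.52 to 5.17 against 1.52 to 3.33 without overlap, but its difference of 2.44 ± 0.84 did not pass (adjusted p = 0.228).

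Fewer genes of the endoplasmic reticulum passed. Of 46 chaperones and unfolded protein response genes 7 were higher and 0 were lower (median 0.35), and the 7 fell to 4 without any 1 of YFP+ samples 23677 and 23550 or YFP- samples 23551, 23548, 23677 and 23547. Derl3, Txndc5 and Creld2 are counted among the plasma cell genes too. Derl3, a component of the degradation channel, read -0.96, -0.48, 0.48, -0.68 and 0.50 in YFP+ samples against -2.26, -2.41, -1.23, -2.16 and -2.24 (1.83 ± 0.30, adjusted p = 0.00338, limma). Txndc5, a protein disulfide isomerase, was higher by 1.51 ± 0.23 (adjusted p = 0.00204), and Txndc11, a related thioredoxin-domain protein, by 0.79 ± 0.14 (adjusted p = 0.00475). Creld2 (1.06 ± 0.24, adjusted p = 0.0322), Sec11c (1.13), Pdia4 (1.08) and Edem2 (0.91) complete the 7. With slide as a block Pdia4 (adjusted p = 0.0884, limma) and Edem2 (adjusted p = 0.0653) did not pass and 5 of the list did, and Creld2 lost its call in 9 of 23 refits. Hspa5, the central chaperone BiP, read 3.86 to 4.49 in YFP+ and 4.03 to 4.44 in YFP- samples (-0.11 ± 0.17, adjusted p = 0.907).

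**Figure D3:**
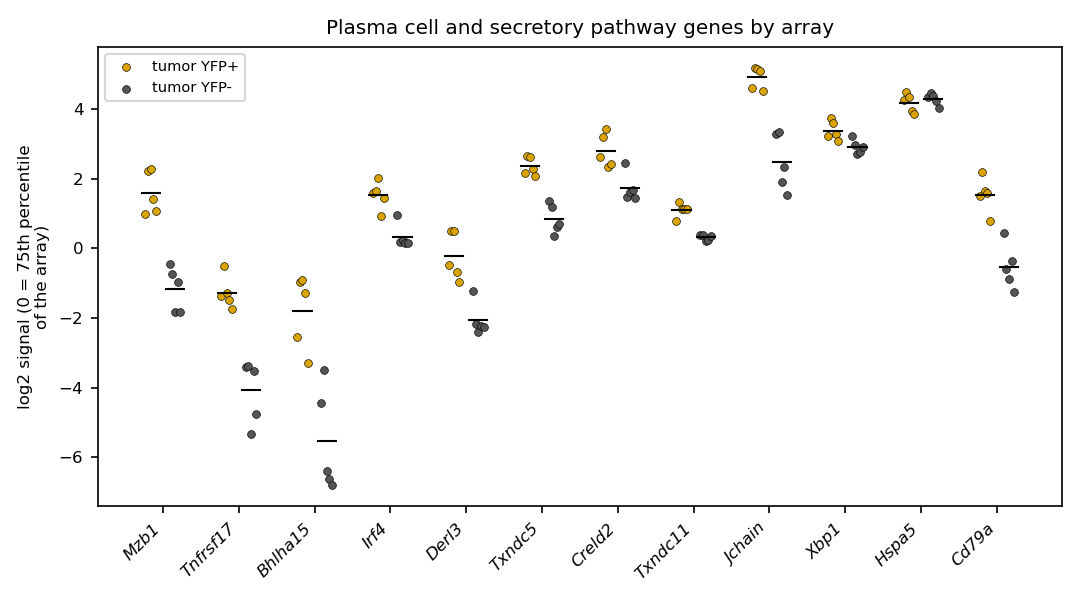
Log2 signal (vertical axis, 0 is the 75th percentile of the array) of 12 plasma cell, secretory and B cell genes in the 5 tumor YFP+ and 5 tumor YFP- arrays, with group means as bars. Mzb1, Tnfrsf17, Derl3 and Txndc5 separate the groups without overlap, and the values of Hspa5 overlap.

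The 250 bases before the start of these genes were searched on both strands for the endoplasmic reticulum stress element (CCAAT and CCACG with 9 bases of any kind between them) and for TGACGTGG, a motif linked to the XBP1 factor. The first is in 37 of 32851 windows (0.113%) and in those of 10 of the 41 list members that have a window. Of these 10 members 2 (Derl3 and Creld2) were higher. The windows of Hspa5 and Canx hold it too, with differences of -0.11 and -0.13. Of 53 higher genes with a window 2 hold the first motif and 3 hold TGACGTGG. The second is in 185 windows (0.563%), among them those of Txndc5, Txndc11 and Pou2af1, which were higher, and of Sec24d, which did not pass (0.32, adjusted p = 0.869, limma). The 5 windows of higher genes that hold a match are printed from RefSeq (GRCm38.p6) with the match in capitals: Derl3 at chr10:75893148-75893397 (plus strand), Creld2 at chr15:88819396-88819645 (plus), Txndc5 at chr13:38527915-38528164 (minus), Txndc11 at chr16:11134533-11134782 (minus) and Pou2af1 at chr9:51213440-51213689 (plus). A match describes letters only, and binding was not measured.
Derl3: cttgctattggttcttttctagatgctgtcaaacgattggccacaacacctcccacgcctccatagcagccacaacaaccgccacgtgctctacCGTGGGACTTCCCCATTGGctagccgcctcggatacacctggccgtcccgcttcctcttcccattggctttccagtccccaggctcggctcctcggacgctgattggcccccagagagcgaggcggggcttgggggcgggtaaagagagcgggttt
Creld2: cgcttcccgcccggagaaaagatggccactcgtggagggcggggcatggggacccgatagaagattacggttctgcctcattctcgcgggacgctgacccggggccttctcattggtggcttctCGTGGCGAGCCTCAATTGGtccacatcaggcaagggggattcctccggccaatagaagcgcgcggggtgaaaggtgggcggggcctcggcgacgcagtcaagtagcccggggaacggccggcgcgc
Txndc5: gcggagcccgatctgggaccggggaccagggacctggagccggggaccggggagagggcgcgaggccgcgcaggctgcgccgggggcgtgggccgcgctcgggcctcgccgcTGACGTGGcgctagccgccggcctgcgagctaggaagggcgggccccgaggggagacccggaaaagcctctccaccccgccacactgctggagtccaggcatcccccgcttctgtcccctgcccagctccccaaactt
Txndc11: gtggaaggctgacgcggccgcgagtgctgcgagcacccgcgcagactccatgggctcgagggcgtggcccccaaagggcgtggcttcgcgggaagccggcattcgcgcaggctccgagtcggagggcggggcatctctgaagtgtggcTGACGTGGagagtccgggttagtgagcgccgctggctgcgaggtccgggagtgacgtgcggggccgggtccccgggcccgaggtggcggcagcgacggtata
Pou2af1: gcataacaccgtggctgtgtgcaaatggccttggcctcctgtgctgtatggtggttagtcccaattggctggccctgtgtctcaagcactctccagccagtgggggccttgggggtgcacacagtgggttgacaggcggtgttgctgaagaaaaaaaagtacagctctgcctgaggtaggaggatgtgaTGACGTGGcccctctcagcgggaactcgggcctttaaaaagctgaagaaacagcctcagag

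Markers of B cells before the secretory stage were less clear. Of 17 B cell genes 3 were higher (Fcrla, Pou2af1 and Blnk) and 16 differences were positive (median 0.76), and the 3 fell to 1 in 7 of the 10 refits that left out 1 tumor sample, those without YFP+ samples 23548, 23677, 23550 and 23551 and YFP- samples 23548, 23677 and 23547. Pou2af1 is counted among the plasma cell genes too. The plasma cell, B cell and endoplasmic reticulum lists together held 15 different higher genes of 74 tested. Blnk, an adaptor of B cell receptor signalling, was higher by 0.82 ± 0.15 (adjusted p = 0.00628, limma). Cd79a, a chain of that receptor, read 0.78 to 2.20 in YFP+ and -1.27 to 0.43 in YFP- samples, a difference of 2.07 ± 1.09 that did not pass (adjusted p = 0.572). Ms4a1, which encodes the B cell surface marker CD20, overlapped between groups (1.09 ± 0.71, limma adjusted p = 0.699). The mean level of the B cell list was -1.21 to -0.10 in YFP+ and -1.92 to -0.91 in YFP- samples, which overlap, and the part of B cells in the immunoglobulin differences was not tested.

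Few genes of T cells and of lymphocyte trafficking passed. Of 17 T cell genes 2 were higher, Tigit and Tox2, and 15 did not pass. Among the 17 differences 15 were positive (median 0.30). The mean level of the list was -1.25 to -0.70 in YFP+ and -2.06 to -1.50 in YFP- samples, without overlap. Cd3d, Cd3e and Cd3g were among those that did not pass, with differences of 0.04, 0.11 and 0.79 when slide was a block. Tigit, which encodes a checkpoint receptor that restrains lymphocytes, read -3.86, -3.03, -2.51, -2.81 and -1.91 in YFP+ samples and was not well above background on any YFP- array. It was at least 3.06-fold higher (adjusted p = 0.00179, limma), a call lost with normexp background correction (Tigit adjusted p = 0.219). This bound sets the mean of the brighter group against the mean, over arrays of the dimmer group, of the lowest signal that was well above background or the gene's own signal where that was higher. Tox2, a transcription factor of lymphocytes, was higher by 3.39 ± 0.63 (adjusted p = 0.0071) and measured on 2 of 5 YFP- arrays, and the Tox2 difference was 2.58 with the floor. Among 20 chemokine receptors 2 were higher, against 0.769% of all genes. Ccr10, used by antibody-secreting cells and skin T cells, was higher by 1.24 ± 0.22 (limma adjusted p = 0.00515). Cxcr3, a receptor of activated lymphocytes, was higher by 1.53 ± 0.36 (limma adjusted p = 0.0363), a call that Cxcr3 lost in 10 of 23 refits. Lag3, a checkpoint receptor, was higher by 1.42 ± 0.28 (adjusted p = 0.00996) and measured on 1 of 5 YFP- arrays; the Lag3 difference was 1.19 with the floor, and the call was lost with normexp background correction (adjusted p = 0.713, limma).

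A further set of higher genes belongs to none of these lists or is shared among cell types. Tmem72, a membrane protein, read -0.08, -0.21, 0.34, 0.30 and 0.20 in YFP+ samples and -3.11, -3.74, -2.77, -3.08 and -1.37 in YFP- samples, without overlap (2.93 ± 0.39, adjusted p = 0.000663, limma). Trp53inp1, a p53-induced gene of stress and autophagy, was higher by 1.72 ± 0.23 (adjusted p = 0.000875). Cmah, which hydroxylates sialic acid, was higher by 1.66 ± 0.30 (adjusted p = 0.00611), and Ly6d, a marker of early B lineage and plasmacytoid dendritic cells, by 1.46 ± 0.25 (adjusted p = 0.00386). Nfkb2, the non-canonical NF-kB subunit, was the 1 higher gene of 28 in that pathway (0.77 ± 0.16, limma adjusted p = 0.0134). With 1 gene higher, the pathway lies near the share of all genes (0.769%). Without the immunoglobulin entries 85 genes were higher, and that count fell to 52, 50 and 54 without YFP+ sample 23677, YFP+ sample 23550 or YFP- sample 23548.

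Genes lower in YFP+ samples included those of the extracellular matrix. Of the 391 lower genes 155 were on any list used here, and the rest were not sorted into classes. Matrix proteins give a tissue its mechanical structure and are made mainly by fibroblasts and related cells. Of 136 genes in 6 matrix lists 51 were lower and 0 were higher (median difference -0.80), against 1.62% of all genes lower. Of 16 fibrillar and type VI collagen chains 10 were lower (median -3.16). Col1a1, a chain of type I collagen, read 0.05, 0.09, -1.21, -1.32 and -0.45 in YFP+ samples and 4.20, 3.66, 3.91, 4.07 and 3.24 in YFP- samples. The groups lay over 3 units apart (-4.38 ± 0.46, adjusted p = 0.000138, limma). Col3a1 fell by 3.87 ± 0.63 (adjusted p = 0.00318), and Col6a1 by 5.56 ± 0.88 (adjusted p = 0.00249) with 2 of 5 YFP+ arrays well above background (Col6a1 fell by 5.49 with the floor).

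Basement membrane genes were lower for 11 of 24 (median -1.27). Sparc, a collagen-binding protein, read 0.93, 0.94, -0.44, 0.87 and 1.06 against 4.76, 4.50, 4.70, 4.76 and 5.08 (-4.09 ± 0.51, adjusted p = 0.000502, limma). Nid1, which links laminin and collagen IV, fell by 4.05 ± 0.71 (adjusted p = 0.00515), and Col4a1 by 2.81 ± 0.43 (adjusted p = 0.00173). Of 22 elastic fibre genes 11 were lower (median -1.34). Fbln2, a fibulin of elastic fibres, read -1.70, -2.07, -0.95, -1.02 and -1.35 against 2.16, 2.18, 1.96, 2.11 and 1.86, with no overlap (-3.47 ± 0.32, adjusted p = 4.94e-05). Lox, the enzyme that cross-links collagen and elastin, was not well above background on any YFP+ array and was at least 11.6-fold lower (adjusted p = 4.51e-05, limma).

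The small proteoglycans Dcn, Bgn and Lum made up 3 of the 4 lower genes among 26 proteoglycan genes. Dcn, a regulator of collagen fibrils, read -0.45, -1.37, -3.00, -1.16 and -2.03 in YFP+ samples and 3.73, 2.41, 3.70, 3.49 and 4.38 in YFP- samples (-5.14 ± 0.67, adjusted p = 0.000605, limma). Of 24 matricellular genes, which signal from the matrix to cells, 10 were lower (median -1.37). Thbs2, an inhibitor of vessel growth, was not well above background on any YFP+ array and was at least 4.17-fold lower (adjusted p = 4.48e-07). Collagen processing genes were lower for 6 of 26 (median -0.22). Serpinh1, the collagen chaperone HSP47, fell by 3.71 ± 0.58 (adjusted p = 0.00225), and Pcolce, an enhancer of procollagen cleavage, by 4.06 ± 0.38 (adjusted p = 4.94e-05, well above background on 4 of 5 YFP+ arrays). The general protein folding genes above moved the other way or did not pass.

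**Figure D4:**
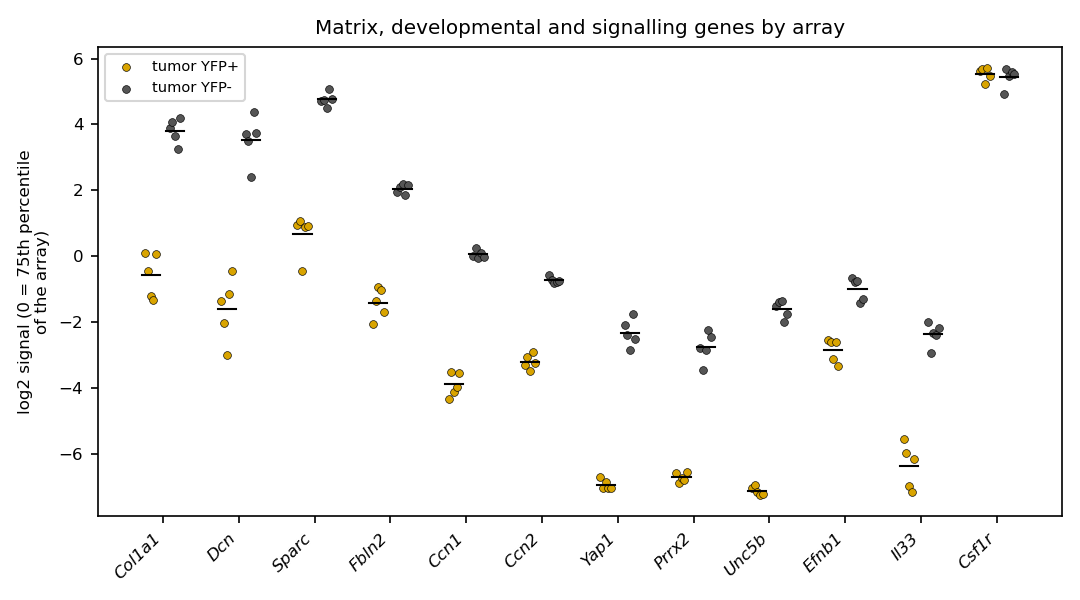
Log2 signal (vertical axis, 0 is the 75th percentile of the array) of 12 genes, 11 of matrix, transcription and signalling and the macrophage gene Csf1r, in the 5 tumor YFP+ and 5 tumor YFP- arrays, with group means as bars. Each gene but Csf1r has all YFP+ values below all YFP- values, and values near -7 are at the floor of the array.

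Some markers of the cells that make matrix were lower too. Of 26 fibroblast markers, a list that shares several genes with the matrix lists, 10 were lower (median -1.22), with a mean level of -2.82 to -2.43 in YFP+ and -1.12 to -0.40 in YFP- samples and 4 of the 26 not well above background on any YFP+ array. Pdgfra, a PDGF receptor of fibroblasts, was at least 2.88-fold lower (adjusted p = 0.00339, limma) and was measured on 4 of 5 YFP- arrays. The other 16 fibroblast markers did not pass, among them Thy1, Pdpn and Fap. With slide as a block Thy1, Pdpn and Fap differed by -0.82, -0.32 and -0.83 (limma adjusted p = 0.58, 0.88 and 0.12). Of 20 stellate, pericyte and smooth muscle genes 4 were lower (median -0.49), among them Acta2, smooth muscle actin, by 2.97 ± 0.30 (adjusted p = 9.49e-05). Tagln, another smooth muscle gene, read 0.15 to 2.14 against -0.40 to 1.64 and did not pass (0.52 ± 0.46, adjusted p = 0.811). The lower markers moved with the matrix genes, and their part in that result was not tested.

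Developmental transcription factors were lower for 7 of 29 (median -0.66). Prrx2, a homeobox factor of connective tissue, read -6.57, -6.60, -6.72, -6.81 and -6.90 in YFP+ samples and -2.46, -2.86, -2.79, -3.46 and -2.25 in YFP- samples. It was not well above background on any YFP+ array and was at least 4.33-fold lower (adjusted p = 7.87e-08, limma). Nfib fell by 2.83 ± 0.35 (adjusted p = 0.000503). Yap1, the co-activator held back by the Hippo pathway, read -7.05 to -6.70 against -2.85 to -1.77 and was at least 5.87-fold lower (adjusted p = 0.000543).

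Ccn2, Ccn1, Ankrd1 and Tead2 were set side by side after their values were seen, and together they stand for no list. Ccn1 and Ccn2 are already counted among the matricellular genes above. Ccn2, a matricellular protein, read -3.25, -3.30, -3.49, -2.92 and -3.05 in YFP+ samples and -0.77, -0.81, -0.56, -0.73 and -0.78 in YFP- samples, a narrow spread on both sides (-2.48 ± 0.17, adjusted p = 1.64e-06, limma). Ccn1 fell by 3.96 ± 0.58 (adjusted p = 0.00136), and Ankrd1 by 2.61 ± 0.43 (adjusted p = 0.00338), or by 2.03 with the floor, with 1 of 5 YFP+ arrays well above background. Tead2, a transcription factor of the TEAD family, fell by 1.91 ± 0.37 (adjusted p = 0.0107).

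Guidance cues, which steer axons and also vessels and immune cells, were lower for 7 of 31 genes (median -0.51). Unc5b, a netrin receptor, read -7.23, -7.05, -7.17, -7.24 and -6.96 against -1.76, -1.36, -1.50, -1.39 and -1.99, was not well above background in any YFP+ sample and was at least 9.68-fold lower (adjusted p = 3.1e-05, limma). The ephrin Efna1 was at least 4.43-fold lower (adjusted p = 0.000118). Slit3, a ligand of ROBO receptors, fell by 3.15 ± 0.43 (adjusted p = 0.000964), and Slit2 by 2.19 ± 0.49 (adjusted p = 0.0256), a call lost in 9 of 23 refits, among them the one with slide as a block (adjusted p = 0.0735).

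Growth factor systems contributed a few lower genes each, against 1.62% of all genes. The PDGF, FGF, VEGF and EGF families gave 4 of 34 and TGF-beta and BMP signalling 4 of 33. Wnt and hedgehog signalling gave 5 of 29 and the insulin-like growth factor system 3 of 15, with 0 higher in any. Pdgfra and Sfrp2 are on the fibroblast list too, and Pdgfrb on the stellate and pericyte list, so these counts overlap with those above. Vegfd, a lymphatic growth factor, was at least 9.74-fold lower (adjusted p = 0.000609, limma). Tgfb2, a TGF-beta ligand, was at least 3.45-fold lower (adjusted p = 0.00321), measured on 4 of 5 YFP- arrays. Fstl1, a secreted BMP antagonist, fell by 3.76 ± 0.42 (adjusted p = 0.000214), and the Wnt modulator Dkk3 by 5.09 ± 0.64 (adjusted p = 0.000503), or by 3.54 with the floor, with 1 of 5 YFP+ arrays well above background. The 3 insulin-like growth factor genes fell to 1 without YFP+ sample 23551, YFP+ sample 23547 or YFP- sample 23550.

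Cytokine genes lower in YFP+ samples included Il33, an alarmin of stromal and epithelial cells, which read -6.17, -5.54, -6.99, -7.15 and -5.97 against -2.17, -2.32, -2.01, -2.94 and -2.40 and was at least 5.69-fold lower (adjusted p = 0.00122, limma). Osmr, the oncostatin M receptor, was at least 4.85-fold lower (adjusted p = 0.000158). These were the 2 lower genes of 35 interleukins, colony-stimulating factors and receptors (5.71%, against 1.62% of all genes). Cxcl5, a neutrophil attractant, was the 1 lower gene of 32 chemokine ligands (-2.14 ± 0.35, limma adjusted p = 0.00309, well above background on 3 of 5 YFP+ arrays). With 1 gene lower, the ligands as a family lie near the share of all genes. Of 35 complement and coagulation genes 5 were lower, led by Cfi, the protease that inactivates C3b (at least 4.62-fold, adjusted p = 3.1e-05). Serpina3n, a protease inhibitor, was at least 10.4-fold lower (adjusted p = 1.27e-06), and Cyp1b1, a xenobiotic and steroid hydroxylase, at least 13.1-fold (adjusted p = 0.000404).

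Epithelial markers were lower as well. Of 27 ductal and tumor epithelium genes 15 were lower and 0 were higher (median -1.84), with a mean level of -2.21 to -1.48 in YFP+ and -0.39 to 0.18 in YFP- samples. Krt19, a keratin on the ductal and the mesothelial lists, read -1.53, 0.06, -0.76, -1.80 and -0.98 against 1.67, 3.23, 1.92, 2.49 and 2.28 (-3.32 ± 0.41, adjusted p = 0.000502, limma). Krt18 fell by 2.16 ± 0.22 (adjusted p = 9.88e-05). The mesothelial list, which shares Krt19, Krt7 and Msln with the ductal list, had 3 of 11 genes lower and 0 higher (median -1.74). Its mean level was -2.74 to -2.38 in YFP+ and -1.45 to 0.05 in YFP- samples. Epcam, an epithelial adhesion molecule, read -1.75 to -0.55 in YFP+ and -1.43 to -1.36 in YFP- samples and did not pass (0.30 ± 0.32, adjusted p = 0.848). Of 31 acinar genes 9 were lower and 1, Bhlha15, was higher. The 9 fell to 5 when only the 10 tumor arrays were fitted or slide was a block.

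Mast cell and basophil genes were lower for 8 of 16, and all 16 differences were negative (median -2.50). Fcer1a, a chain of the high-affinity IgE receptor, read -7.11, -6.82, -3.12, -7.11 and -5.59 in YFP+ samples and 0.83, -1.79, 2.06, -1.87 and -0.21 in YFP- samples. It was well above background on 1 of 5 YFP+ arrays, so the size of the difference (-5.75 ± 0.81, adjusted p = 0.0011, limma) depends on the floor, with which it was -4.33. Cpa3, a mast cell protease, fell by 4.96 ± 0.91 (adjusted p = 0.0071, well above background on 3 of 5 YFP+ arrays), and Hdc, which makes histamine, by 2.45 ± 0.55 (adjusted p = 0.0275), a call that Hdc lost in 9 of 23 refits, among them the one with slide as a block (adjusted p = 0.0818). The list level was -3.58 to -2.0 in YFP+ and -1.01 to 0.93 in YFP- samples, and the 8 fell to 4 without YFP+ sample 23551 or 23547 and to 5 without YFP- sample 23547. The part of epithelial, mesothelial and mast cell RNA in the other differences was not tested.

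**Figure D5:**
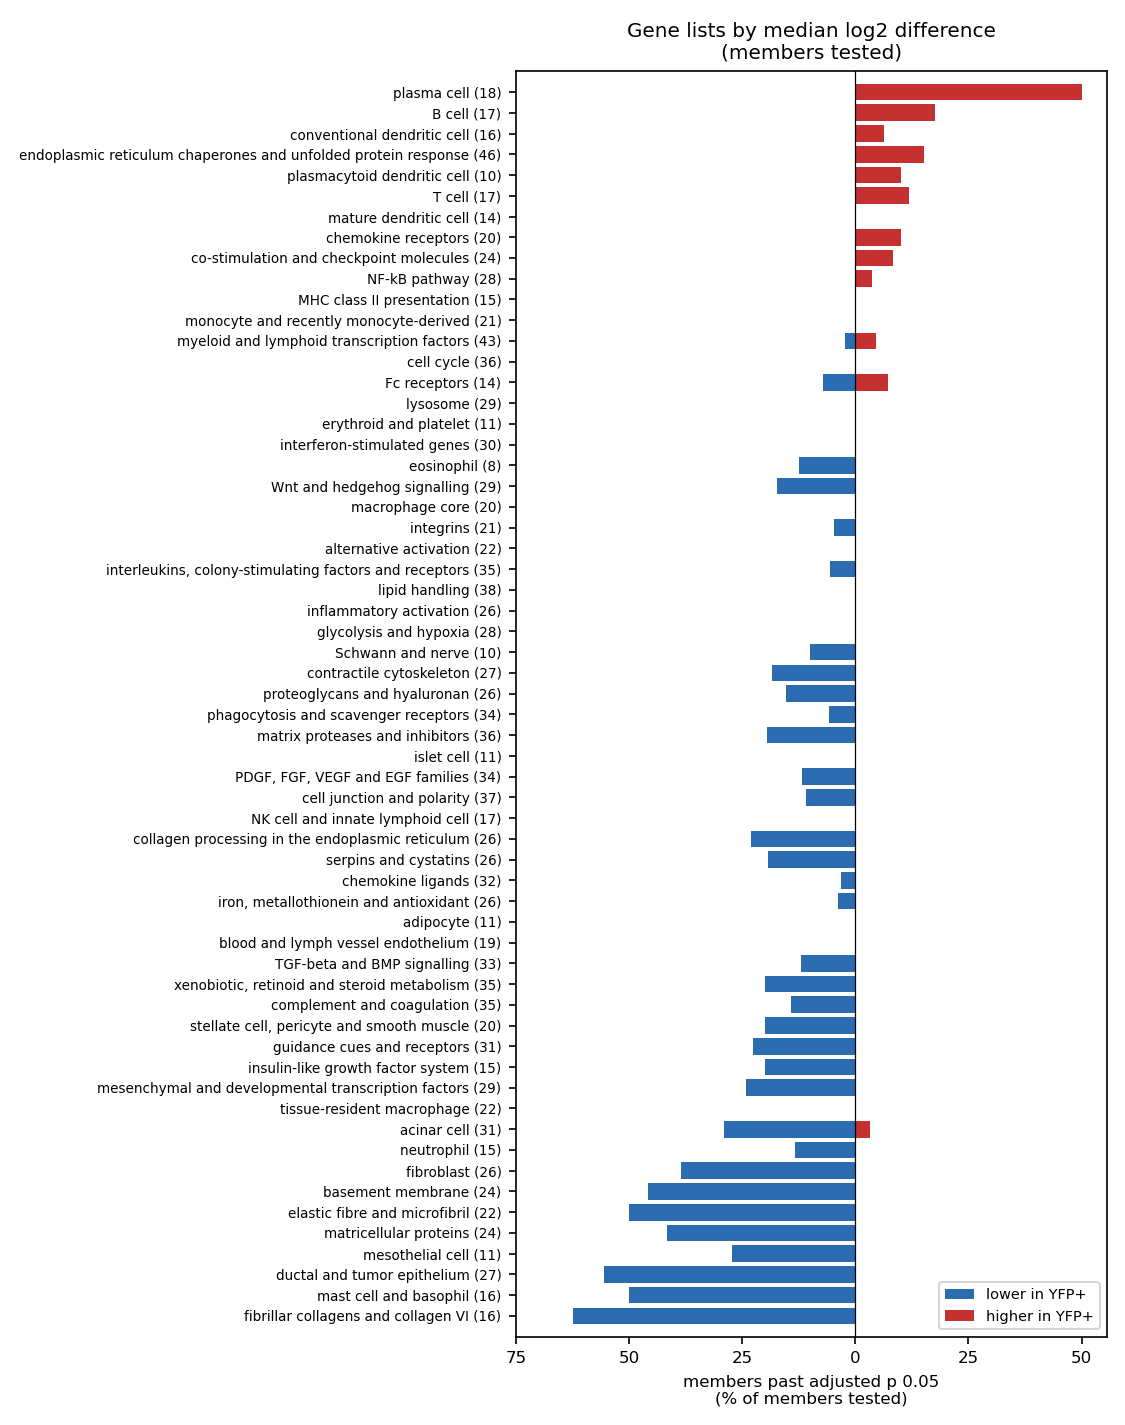
Share of the tested members of each gene list (horizontal axis, %) that passed adjusted p 0.05, lower in tumor YFP+ to the left and higher to the right, for lists with at least 8 members tested, ordered by median log2 difference, with the number of members tested in parentheses. The plasma cell list (9 of 18) stands at the top and the fibrillar and type VI collagens (10 of 16) at the bottom, and the macrophage core list has no bar.

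In normal pancreas the same contrast rests on 3 and 3 samples and shares the fitted spread. Of the 186 genes higher in the tumor 118 had a positive difference there, of the 391 lower genes 347 had a negative one, and 0 of either passed the test in that tissue. The immunoglobulin entries had a median difference of 1.06 there, and their mean level ran from -2.63 to -0.42 over the 3 YFP+ arrays of that tissue and from -3.90 to -1.73 over its 3 YFP- arrays, below both tumor groups but for the highest normal YFP+ value. The difference of the 2 contrasts passed for 25 genes (0.103%), 5 of them among the higher and 14 among the lower genes of the tumor. That count fell to 15, 12 and 16 without YFP+ sample 23677, 23551 or 23547, was 9 with slide as a block and 16 with a replicate block, and rose to 42 with the floor and 358 with array weights. Prrx2 (interaction adjusted p = 0.00014, limma), Thbs2 (adjusted p = 0.00074) and Serpina3n (adjusted p = 0.0016) were among the 14. Each was well above background on 0 arrays of tumor YFP+, normal YFP+ and normal YFP- samples, so no size is given for their difference between tissues. Efnb1, an ephrin ligand, fell by 1.85 ± 0.26 in the tumor and differed by 0.78 in normal pancreas (interaction adjusted p = 0.032).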

How the data were processed

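The scanner files hold red-channel intensity values of 16 Agilent 4x44K arrays, 4 on each of 4 slides, that the authors extracted with Agilent Feature Extraction 11.5.1.1, per the file headers and the submitters' processing notes. Per the labels' protocols, cells were sorted into lysis buffer, and amplified cDNA was labelled with Cy5. Log2 processed signal was reduced by the 75th percentile of each array. Probes well above background on at least 3 arrays were kept, the brightest probe stood for a gene, and genes were named by RefSeq accession, symbol or synonym where these matched. All 4 groups were fitted together in limma 3.58.1 (R 4.3.3) without a block, with Benjamini-Hochberg adjustment over 24172 genes; the procedure was tested on simulated data. Between 64.9% and 72.8% of spots on the tumor arrays were well above background and 0 were saturated, and the number of arrays limits the precision. The deposited log2 values of the series matrix, whose median is 9.02 on each array and whose scaling is not given in the sources used here, served as an alternative; they follow the scanner values of the same arrays in scale and direction.

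Members, gene lists and tests were chosen with earlier results of these data known. The genes named are the 12 largest differences each way among genes measured on all 10 tumor arrays, the 8 largest bounds each way, up to 3 members of each of 61 lists that passed and up to 3 that did not, and Flt3, Csf1r, Adgre1 and Ccr2; not all are printed, and others were named after their values were seen. The immunoglobulin class was identified by probe position, description or RefSeq name. Alternatives were other scalings, background corrections, filters, probe rules, blocks, array weights and leaving out each tumor sample.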

Additional observations from a re-analysis of the deposited data

Results flagged for a closer look

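Among 292 groups of 5 tumor arrays examined for the genes and lists described, 13 had 1 array standing apart from the other 4. Chance gives about 1 in 20, so this count is not above what chance gives. Some lists share genes, so the groups are not independent. The YFP- sample 23550 stood apart in 4 of them and the YFP+ sample 23550 in another 4. In the YFP- sample Irf4 read 0.97 (others 0.14 to 0.25), Creld2 2.45 (others 1.45 to 1.66), Derl3 -1.23 (others -2.41 to -2.16) and the eosinophil list -1.75 (others -0.60 to -0.37). In the YFP+ sample Ankrd1 read -4.11, Efna1 -5.25, Sparc -0.44 and the complement and coagulation list -0.55. In YFP+ sample 23547 the B cell list read -1.21 (others -0.29 to -0.10) and Nfib -1.79, and in YFP- sample 23547 the NK cell and innate lymphoid cell list read -0.57 (others -2.12 to -1.70). Tgfb2 read -6.24 in YFP+ sample 23548, and the insulin-like growth factor list 0.12 in YFP- sample 23677.

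The YFP difference in the tumor minus that in normal pancreas passed the interaction test of limma for 5 of the 81 genes named: Cfi (-4.35), Efnb1 (-2.63), Prrx2 (-3.72), Serpina3n (-5.28) and Thbs2 (-3.90). For Cfi, Prrx2, Serpina3n and Thbs2 the probe was well above background on 0 arrays of 3 of the 4 groups, so these values are set by the floor of the arrays and measure no size.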

How the results depend on the processing

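Over 23 refits none of the 70 named genes that passed changed sign, and 56 of them passed in every refit. The count of 577 ranged from 509 to 801 over the alternative settings and from 422 to 557 when 1 tumor sample was left out. Leaving out 1 tumor sample gave 112 to 181 genes higher, 61 to 91 immunoglobulin entries higher, 50 to 91 other genes higher, 4 to 7 endoplasmic reticulum genes higher, 4 to 8 mast cell genes lower and 12 to 30 interactions. The endoplasmic reticulum count was 4 with median scaling and 4 with slide as a block on the 10 tumor arrays, a setting chosen after seeing the data, which also gave 5 mast cell genes. Interactions numbered 42 with a floor at the lowest signal well above background, 16 with the replicate block, 9 with the slide block and 358 with array weights; the cause was not tested. Normexp correction moved the median of all genes to -0.12. The labels do not say that the title number is an animal, so it was not taken as a pairing in the main fit. Same-numbered samples did not all deviate together (r between -0.29 and 0.32, and 1 of 5 samples correlated best with its own number). Most same-numbered samples lay on different slides, so these correlations cannot show that they are unpaired. The replicate block, with the number as the block, called 599 genes, 485 of them shared with the 577. Slide as a block called 509, 464 of them shared, and within a single slide 183 to 186 of the 186 higher genes and 389 to 391 of the 391 lower genes kept their sign, all 70 named genes that passed among them; as the genes were called on these arrays, this is a description only. Signal near the floor limits the dim genes: bounds are given where no array of the dimmer group was well above background, and sizes depend on the floor where only some were.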

Other observations

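Other groups held smaller numbers of lower genes, set here against 1.62% of all genes. Of 36 matrix proteases and inhibitors 7 were lower in tumor YFP+ samples, and of 35 genes of xenobiotic, retinoid and steroid metabolism 7 were lower. Of 27 contractile genes 5 were lower, led by Cald1, an actin-binding protein of smooth muscle and fibroblasts (-5.04 ± 0.96, limma adjusted p = 0.00891, well above background on 2 of 5 YFP+ arrays). Of 15 neutrophil genes 2 were lower, Ltf and Hdc, and Hdc is counted among the mast cell and basophil genes too. S100a8, S100a9 and Mmp8 did not pass (limma adjusted p = 0.677, 0.779 and 0.844 with slide as a block). The mean level of the neutrophil list was 0.87 to 1.12 in YFP+ and 1.54 to 2.03 in YFP- samples. Of 22 tissue-resident macrophage genes 0 passed, while 20 of the 22 differences were negative (median -0.69).

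All 5 tested probes placed on the mitochondrial chromosome read lower in tumor YFP+ samples, by -1.01 to -0.50, and 2 passed the test. Their mean level was 4.50 to 4.89 in YFP+ and 5.29 to 5.72 in YFP- samples, without overlap.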
